A study of Homo sapiens with 9 samples.

Results

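Caspases and gasdermins are the proteases and pore-forming proteins through which a cell can end its own life. The 8 genes described here are CASP1, CASP4, CASP8, CASP9 and CASP10 and the gasdermin genes GSDMB, GSDMD and GSDME, chosen by symbol from the 62710 gene identifiers of the count table. RNA was measured in HT-29 cells, a human colorectal adenocarcinoma line, here of the WT genotype in all groups. The cells were non-stimulated or received ADP-heptose or flagellin, each at 500 ng/mL and for 2.5 h, with 3 libraries of poly(A) RNA per group from separate experiments. ADP-heptose is a bacterial sugar nucleotide that the kinase ALPK1 senses inside the cell, and flagellin is the protein of the bacterial flagellum that TLR5 senses at the cell surface. The comparisons address whether these bacterial products alter the RNA of the caspase and gasdermin genes in a cell line derived from the colonic epithelium.

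Caspases are made as inactive precursors. Caspase-1 and caspase-4 are the inflammatory caspases: caspase-1 is activated on inflammasomes and caspase-4 by cytosolic lipopolysaccharide, and both cut gasdermin D, whose released part makes pores in the plasma membrane, a lytic death called pyroptosis. Caspase-8 and caspase-10 are recruited to death receptors such as those for TRAIL, and caspase-9 is activated on the apoptosome once mitochondria release cytochrome c. Gasdermin E and gasdermin B are further pore-forming members of the family, and gasdermin B is known for its expression in epithelia. Activation takes place by cleavage of the proteins, which an RNA measurement does not see.

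Total counts ranged from 35040844 to 37537705 in the non-stimulated libraries, from 30770448 to 38304035 in the flagellin libraries and from 50054773 to 58272772 in the ADP-heptose libraries. ADP-heptose replicate 3 stood apart from its group: over 12606 genes the log2 values differed between it and replicates 1 and 2 with an SD of 0.363 and 0.368, against 0.131 between replicates 1 and 2 and 0.162 to 0.19 within the other groups. For each result below whose call changed without this library, both values are given. The other values hold this library unless stated. The 7 epithelial markers EPCAM, KRT8, KRT18, KRT20, CDH1, CDX2 and VIL1 were all detected, CDX2 with only 17 to 48 counts per library, and their summed level was 7455 to 7779 CPM (counts scaled to the effective library size) in non-stimulated cells, 7638 to 7918 after flagellin and 8234 to 11522 after ADP-heptose, or 8234 to 8272 without its replicate 3. The epithelial markers did not all move alike after ADP-heptose. KRT20 alone passed an edgeR adjusted p of 0.05, as higher (log2 fold change 0.40, adjusted p = 0.000941). CDX2 was at -0.95 (adjusted p = 0.19). Without ADP-heptose replicate 3, CDX2 also passed, as lower (-1.37, adjusted p = 0.0187), and KRT18 as higher (0.17, adjusted p = 0.00431). Of 8 immune, stromal and endothelial markers, 7 had at most 13 counts in every library. The exception was COL1A1, a collagen gene, with 437 to 1019 counts, which rose after ADP-heptose (log2 fold change 0.41, SE 0.11, edgeR adjusted p = 0.0311, and up to 0.124 without ADP-heptose replicate 2, non-stimulated replicate 1 or 2 or with library totals). The summed level of these 8 markers was 12.67 to 14.73 CPM in non-stimulated cells and 17.1 to 19.18 after ADP-heptose (17.1 to 18.34 without replicate 3), and its part in the results below was not tested. In bulk RNA, fewer cells and less RNA per cell cannot be told apart.

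After ADP-heptose, CASP10 and CASP4 rose. CASP10 was 1.47-fold higher (95% interval 1.25 to 1.72) and CASP4 was 1.32-fold higher (1.13 to 1.54), while CASP8, CASP9, GSDMB, GSDMD and GSDME did not pass the test. CASP1 had no counts in any library. After flagellin no member passed the test. None of the members reached a 2-fold change together with an adjusted p under 0.05 in any of the 3 comparisons.

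**Figure D1:**
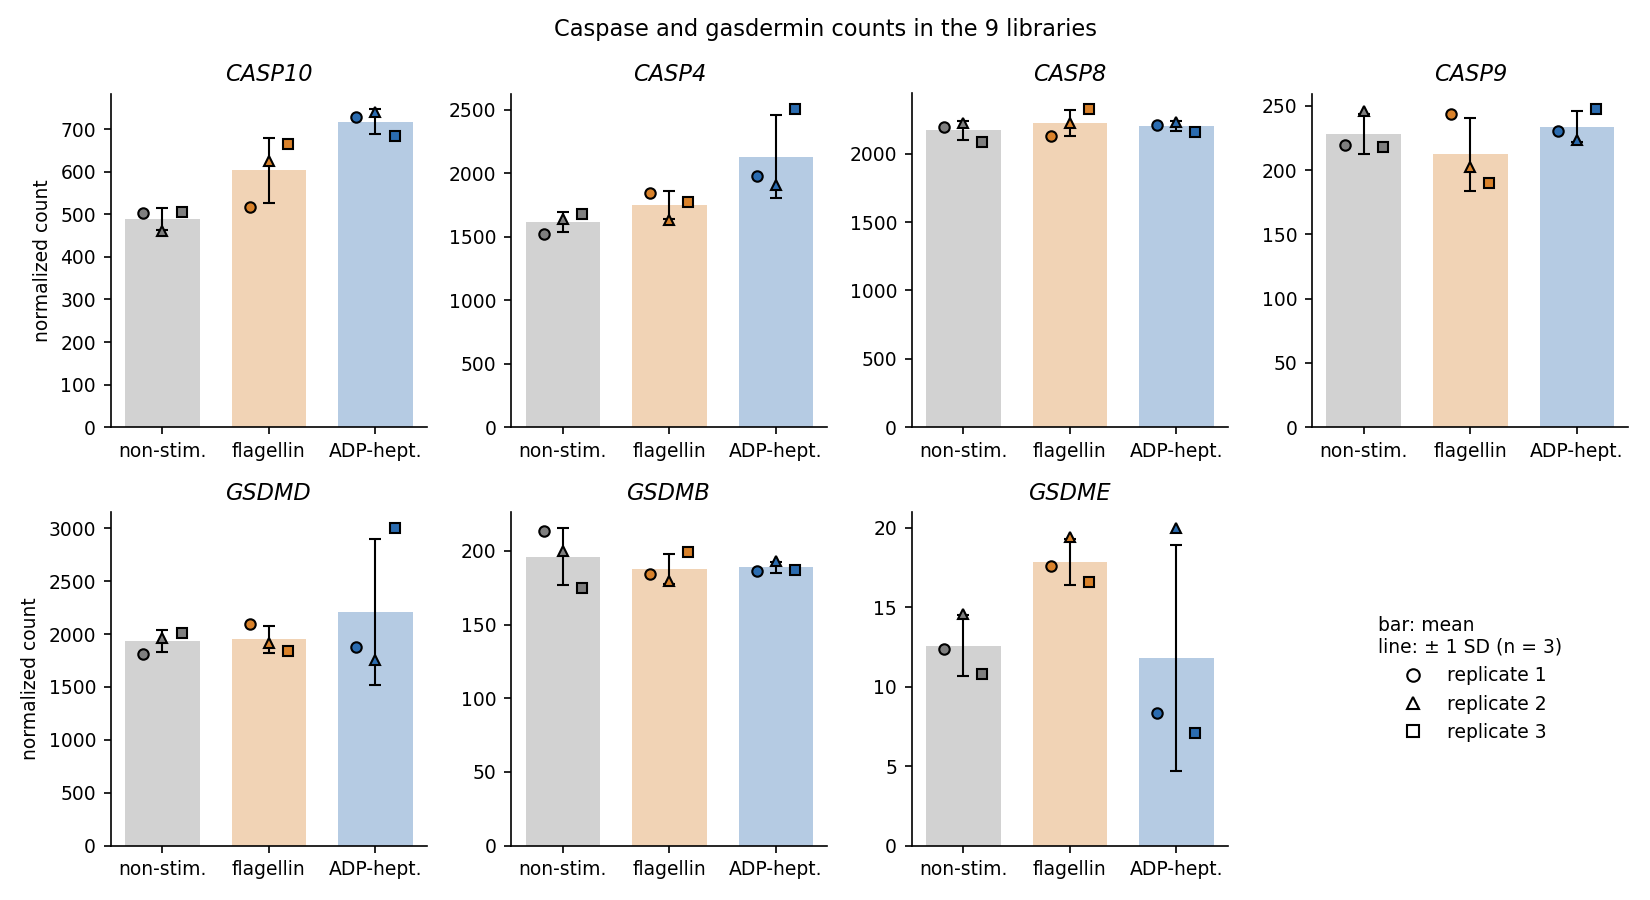
Normalized counts (vertical axes, each starting at 0) of the 7 detected genes in non-stimulated, flagellin and ADP-heptose libraries. Bars are means, lines are ± 1 SD (n = 3) and symbols are the replicates. The 3 ADP-heptose libraries lie above the 3 non-stimulated ones for CASP10 and CASP4, as in 15.4% of all tested genes. ADP-heptose replicate 3 lies alone at 3003 for GSDMD.

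Counts were compared in 1 edgeR quasi-likelihood fit of all 9 libraries over 17412 genes, and a gene was called at a Benjamini-Hochberg adjusted p under 0.05. The 8 members included 7 that passed the filter on low counts. In ADP-heptose against non-stimulated cells 2 of these 7 were called higher and 0 lower, where 7.48% of all tested genes were called higher and 4.42% lower. With the added condition of a 2-fold change these shares were 2.89% and 0.471% of all tested genes. The median log2 fold change of the 7 members was 0.04, beside 0.01 over all tested genes.

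Sequences upstream of the genes are shown for the member that rose and had a RefSeq window, CASP4, and for CASP8 and its neighbour CFLAR, which lie in 1 gene cluster. Each window holds 250 bases before and 50 bases from a RefSeq transcript start (GRCh38.p14), printed 5′ to 3′ on the strand of the gene, with matches of 3 motifs in capitals. Such a window was found for 4 of the 8 members (CASP4, CASP8, CASP9 and GSDME).
CASP4, chr11:104968525-104968824, minus strand: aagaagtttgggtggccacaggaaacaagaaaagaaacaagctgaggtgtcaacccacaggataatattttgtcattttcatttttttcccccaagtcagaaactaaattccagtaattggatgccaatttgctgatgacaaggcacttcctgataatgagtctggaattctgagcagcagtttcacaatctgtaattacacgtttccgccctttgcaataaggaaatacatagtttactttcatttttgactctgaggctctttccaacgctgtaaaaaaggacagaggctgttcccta
CASP8, chr2:201233213-201233512, plus strand: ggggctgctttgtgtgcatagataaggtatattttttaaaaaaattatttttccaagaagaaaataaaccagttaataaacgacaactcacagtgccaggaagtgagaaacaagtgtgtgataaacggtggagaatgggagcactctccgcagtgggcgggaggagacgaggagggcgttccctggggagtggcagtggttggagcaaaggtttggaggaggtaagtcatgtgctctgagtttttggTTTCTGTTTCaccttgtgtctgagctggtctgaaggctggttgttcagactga
CFLAR, chr2:201118466-201118765, plus strand: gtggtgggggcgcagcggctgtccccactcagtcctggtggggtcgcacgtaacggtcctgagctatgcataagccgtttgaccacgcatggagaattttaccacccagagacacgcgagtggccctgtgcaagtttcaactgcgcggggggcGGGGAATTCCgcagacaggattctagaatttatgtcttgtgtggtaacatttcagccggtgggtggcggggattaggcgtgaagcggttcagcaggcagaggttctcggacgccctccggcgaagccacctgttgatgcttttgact
The motifs, searched on both strands, were the κB consensus, found in 11.3% of 35116 such windows of all genes, the interferon response core, 2 copies of GAAA with 2 bases between them, in 3.57%, and the AP-1 site TGANTCA, in 7.71%. The CASP4 window held none of the 3, and neither did the CASP9 and GSDME windows, which are not printed. The shares are per window, and CASP8, CASP9 and CFLAR each had more than 1 window. In the CASP8 window the capitals are an interferon response core on the opposite strand whose first base in the window is at -3 from the start, and 2 further CASP8 windows, at chr2:201257785-201258084 and chr2:201260286-201260585, each held 1 AP-1 site. In CFLAR the capitals are a κB consensus whose first base is at -97 from the start. Of 3 further CFLAR windows none held a κB consensus, and the one at chr2:201132531-201132830 held 1 AP-1 site. These are matches of letters and not sites of binding.

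CASP4 was the inflammatory caspase with counts in these libraries. It lies at chr11:104942866-104969436 on the minus strand (GRCh38, GENCODE release 29). Its normalized counts, scaled to the effective library size, were 1525, 1640 and 1681 in the non-stimulated libraries, 1847, 1633 and 1770 after flagellin and 1980, 1906 and 2503 after ADP-heptose. Every ADP-heptose library exceeded every library of the other groups, and the flagellin libraries overlapped the non-stimulated ones. A gap of this kind between ADP-heptose and non-stimulated cells, in the upward direction, was seen in 15.4% of all tested genes. The share of genes with ADP-heptose above both other groups was not counted. The log2 fold change of CASP4 after ADP-heptose was 0.40 (SE 0.10, 95% interval 0.17 to 0.62, adjusted p = 0.0263). Replicate 3 was 1.29 times the mean of the other ADP-heptose libraries, and without it the log2 fold change was 0.27 (SE 0.06, adjusted p = 0.00235). The call was lost when any 1 of the non-stimulated libraries was left out (adjusted p = 0.121, 0.0742 and 0.0655 without replicates 1, 2 and 3), and over 18 alternatives it held in 13, with adjusted p from 0.00197 to 0.121.

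CASP1, the protease that matures IL-1β and IL-18, had 0 of 370865622 counts over the 9 libraries, which allows a level of up to 0.00809 CPM of the total count. In single libraries a count of 0 allows up to 0.0515 to 0.0975 CPM. These limits cover counting error only. The gene lies at chr11:105025443-105035250 on the minus strand, within a cluster of related genes in the order CASP12, CASP4, CASP5, CASP1, CARD16, CARD17 and CARD18. CASP5, a close relative of CASP4, and CARD16, CARD17 and CARD18, whose products resemble the CARD domain of caspase-1, were also at 0 in every library, as was CASP12. How reads with more than 1 place of alignment were counted is not given in the sources used here, and reads shared between such near-identical copies would be affected by it. Within this cluster CASP4 alone, at 1387 to 2814 counts per library, had counts.

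GSDMD, the substrate through which caspase-1 and caspase-4 make pores, did not pass the test. It lies on the plus strand of chromosome 8. Its normalized counts were 1814, 1967 and 2013 in non-stimulated cells, 2092, 1919 and 1837 after flagellin and 1877, 1753 and 3003 after ADP-heptose. The 2 lower ADP-heptose libraries bracketed the lowest non-stimulated library and replicate 3 was above all others, at 1.65 times the mean of replicates 1 and 2. The log2 fold change after ADP-heptose was 0.19 (SE 0.16, 95% interval -0.16 to 0.55, adjusted p = 0.487). Without replicate 3 it was -0.09 (SE 0.07, adjusted p = 0.445), so that its sign rested on that library. After flagellin the value was 0.01 (SE 0.16, adjusted p = 1). This SE is from the shared fit of all 9 libraries, which holds ADP-heptose replicate 3. Without that library in the fit the value after flagellin was 0.01 (adjusted p = 0.988).

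GSDMB (chr17:39904595-39919854, minus strand) had normalized counts of 213.5, 199.7 and 175.1 in non-stimulated cells, 184.1, 179.6 and 199.1 after flagellin and 186.6, 192.8 and 186.8 after ADP-heptose. The 3 groups overlapped, and the log2 fold changes were -0.06 (SE 0.12, 95% interval -0.32 to 0.21, adjusted p = 0.814) after ADP-heptose and -0.07 after flagellin. GSDME (chr7:24698351-24758113, minus strand), a pore-forming gene of the same family, was near the lower limit of detection with 8 to 28 raw counts per library. Its raw counts were 12, 13 and 10 in non-stimulated cells, 17, 17 and 13 after flagellin and 10, 28 and 8 after ADP-heptose. ADP-heptose replicate 2 held 2.59 times the normalized count of the other libraries of its group. The fitted log2 fold changes of GSDME were -0.07 after ADP-heptose (95% interval -1.08 to 0.95, adjusted p = 0.945) and 0.50 after flagellin (-0.51 to 1.52, adjusted p = 1), and both intervals span both directions. The remaining gasdermin genes were GSDMA, with 2 counts in 1 ADP-heptose library, GSDMC, with 2 counts in 1 flagellin library, and PJVK, which passed the filter and was not called in any comparison.

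CASP10 and CASP8 lie head to tail with CFLAR on the plus strand of chromosome 2, with CFLAR at chr2:201116104-201176687, CASP10 at chr2:201182881-201229406 and CASP8 at chr2:201233443-201287711. CFLAR encodes c-FLIP, a caspase-8 relative without protease activity that controls caspase-8 at death receptors. After ADP-heptose the log2 fold changes in this order were 1.14 (SE 0.07, adjusted p = 2.56e-07), 0.55 (SE 0.10, adjusted p = 0.00402) and 0.02 (SE 0.07, adjusted p = 0.87). The differences between these 3 neighbours were not tested.

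CASP10 had normalized counts of 502.3, 460 and 506 in the non-stimulated libraries, 518.1, 625.9 and 666.1 after flagellin and 728.2, 739.2 and 684.1 after ADP-heptose. The 3 groups did not overlap, with the flagellin libraries between the others, although flagellin replicate 1 lay close to the highest non-stimulated library. All 3 libraries were above all 3 non-stimulated ones in 15.4% of all tested genes after ADP-heptose and in 7.66% after flagellin. The ADP-heptose libraries were all above the flagellin ones in 14.2%. The share of genes with all 3 groups in this order was not counted. The rise after ADP-heptose had a 95% interval of 0.32 to 0.78 on the log2 scale, was called under all 18 alternatives, with values of 0.42 to 0.61 and adjusted p from 3.26e-05 to 0.029, and was 0.59 (SE 0.10) without ADP-heptose replicate 3. After flagellin the log2 fold change of CASP10 was 0.30 (SE 0.11, 95% interval 0.07 to 0.53). Its unadjusted edgeR p was 0.0154 and its adjusted p was 0.983, so it was not called. Without ADP-heptose replicate 3 in the fit the value after flagellin was 0.29 (adjusted p = 0.227).

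CASP8, the initiator of death receptor apoptosis and a brake on necroptosis, varied least between libraries, relative to its mean, among the 7 detected members. Normalized counts were 2197, 2223 and 2089 in non-stimulated cells, 2128, 2221 and 2324 after flagellin and 2213, 2233 and 2160 after ADP-heptose. The groups overlapped, and the 95% intervals of the log2 fold change were -0.13 to 0.17 after ADP-heptose and -0.11 to 0.18 after flagellin. CASP9 (chr1:15490832-15526534, minus strand), the apoptosome protease, had 219.7, 245.7 and 218.4 in non-stimulated cells, 244, 202.5 and 190.1 after flagellin and 230.8, 223.6 and 247.3 after ADP-heptose. Its log2 fold changes were 0.04 (SE 0.13, 95% interval -0.24 to 0.31, adjusted p = 0.883) after ADP-heptose and -0.10 after flagellin, with overlapping groups. CELA2B on the opposite strand shares 106 exon bases with CASP9 and had 0 to 4 counts per library. Whether reads were counted by strand is not given in the sources used here.

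**Figure D2:**
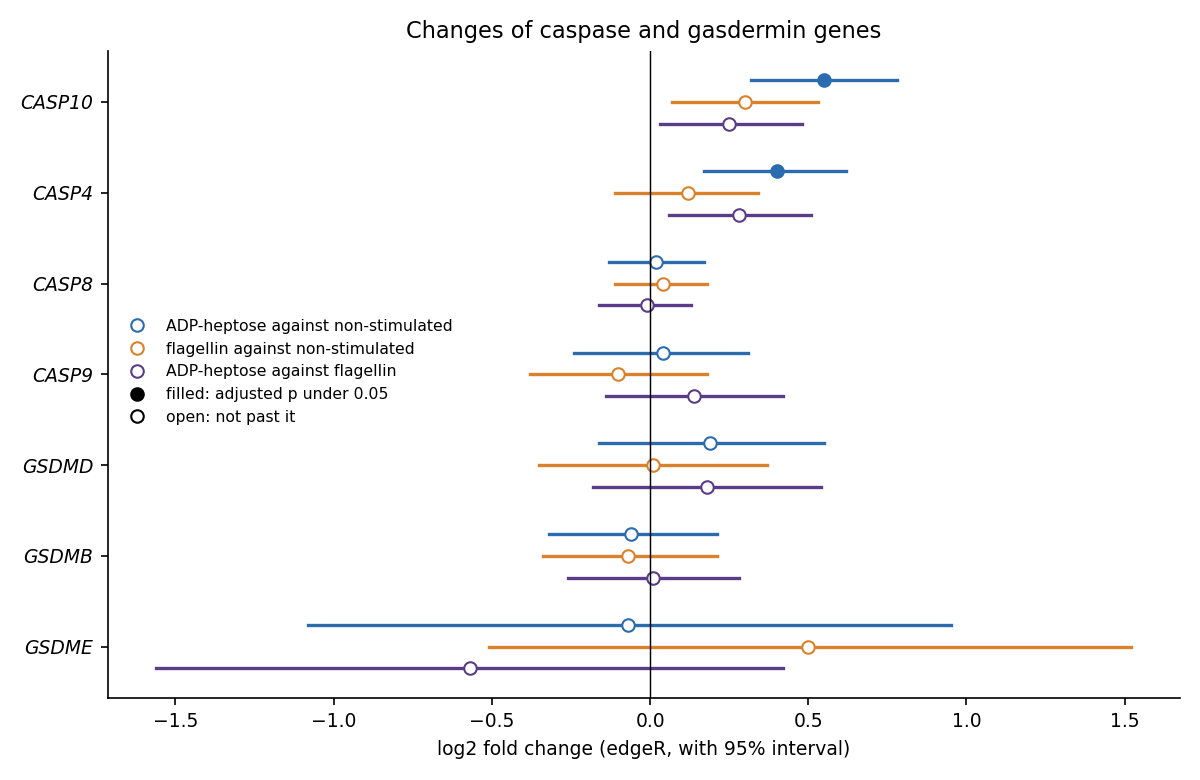
Log2 fold changes (horizontal axis) of the 7 tested members in 3 comparisons, with 95% intervals from the edgeR fit. Filled points passed an adjusted p under 0.05, which are CASP10 (0.55) and CASP4 (0.40) after ADP-heptose, and the widest intervals are those of GSDME, which had 8 to 28 counts per library.

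In flagellin against non-stimulated cells 0 of the 7 tested members were called, where 0.368% of all tested genes were called higher and 0.0115% lower, and 0.212% and 0.0115% with a 2-fold change. At an unadjusted p under 0.05 there was 1 member, CASP10, and there were 659 genes in all. DESeq2 called 102 genes higher and 4 lower, none of them members. The median log2 fold change of the members was 0.04 and that of all genes 0.00. Beside CASP10, GSDME had all 3 flagellin libraries above all 3 non-stimulated ones, which 7.66% of all tested genes had, and it had 17.9 ± 1.45 (SD, n = 3) against 12.6 ± 1.9 normalized counts.

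Between the stimuli, which share the same non-stimulated controls in the comparisons above, ADP-heptose was set directly against flagellin. No member was called, where 5.4% of all tested genes were called higher and 2.76% lower after ADP-heptose, and 2.06% and 0.287% with a 2-fold change. CASP4 was higher after ADP-heptose by 0.28 (SE 0.10, 95% interval 0.06 to 0.51, unadjusted p = 0.0184, adjusted p = 0.132) and CASP10 by 0.25 (SE 0.10, 95% interval 0.03 to 0.48, unadjusted p = 0.0322, adjusted p = 0.187). In both, all 3 ADP-heptose libraries exceeded all 3 flagellin libraries, as in 14.2% of all tested genes. Without ADP-heptose replicate 3, CASP10 passed the test in this comparison (0.30, SE 0.10, adjusted p = 0.0384). The call after ADP-heptose and the absence of a call after flagellin do not by themselves show that the response of either gene differed between the stimuli. For CASP8 the difference was -0.01 (adjusted p = 0.926), for CASP9 0.14 (0.586), for GSDMB 0.01, for GSDMD 0.18 (0.571) and for GSDME -0.57 (95% interval -1.56 to 0.42, adjusted p = 0.513).

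Levels of different genes were compared as CPM per kb of exon. In non-stimulated cells GSDMD was the highest member on this scale at 9.37 ± 0.505 (SD, n = 3), followed by CASP8 at 7.43 ± 0.243, CASP4 at 5.53 ± 0.276, CASP10 at 1.6 ± 0.0834, CASP9 at 1.07 ± 0.0726, GSDMB at 0.824 ± 0.0817 and GSDME at 0.0353 ± 0.00532. No neighbours in this order overlapped between libraries. After ADP-heptose CASP8 and CASP4 did overlap, at 7.4 to 7.65 and 6.52 to 8.56, and GSDMD ranged from 8.51 to 14.6. The caspase genes CASP6 (12.7) and CASP2 (10.4) stood above CASP8 and CASP4 in non-stimulated cells on the same scale. These levels use 1 exon length per gene, all annotated exons merged, so transcripts of different length within a gene are not told apart. The order of genes depends on this length, which was 7256 bases for CASP4, 7243 for CASP8 and 1943 for CASP6. By mean normalized count in non-stimulated cells CASP6 (993) stood below CASP8 (2169) and CASP4 (1616). On that measure CASP8 stood above GSDMD (1931).

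**Figure D3:**
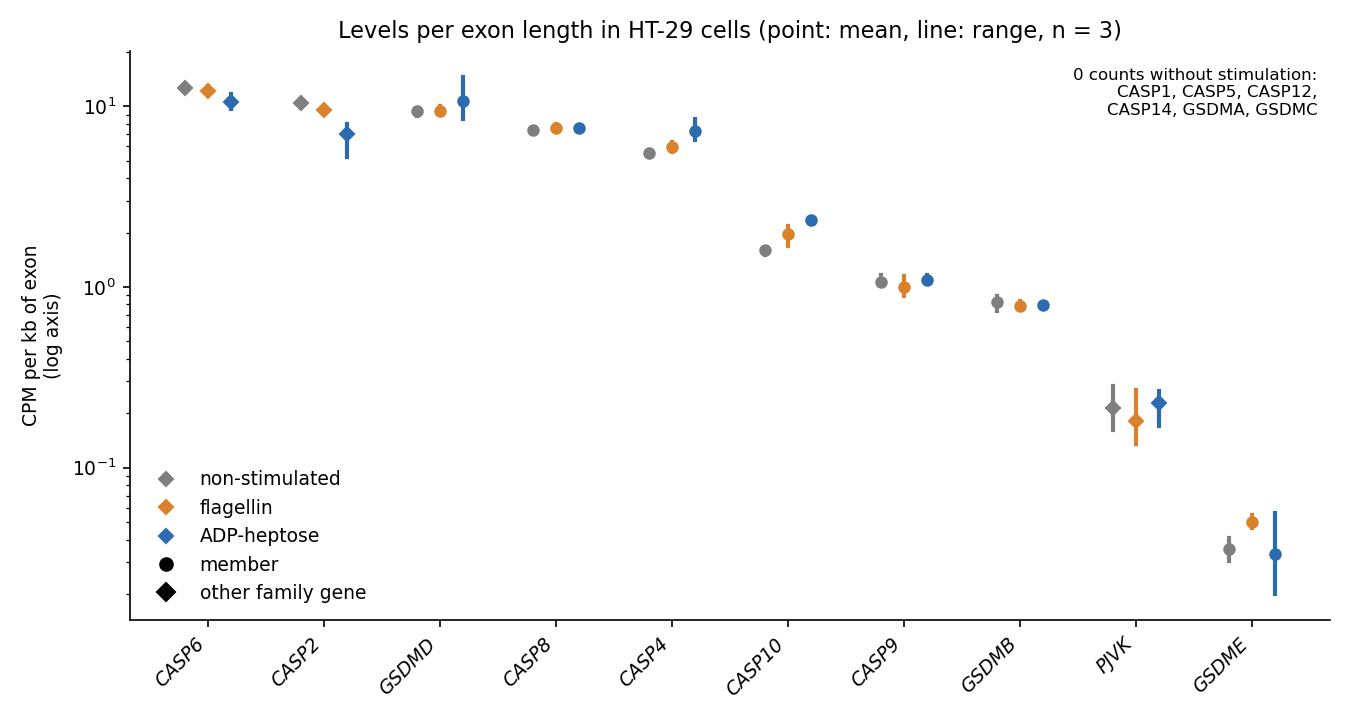
CPM per kb of exon (log axis) of the members (circles) and of other caspase and gasdermin genes reported here (diamonds), by group. Points are means and lines the range of 3 libraries. GSDMD, CASP8 and CASP4 lie at 5.53 to 9.37 in non-stimulated cells, below CASP6 and CASP2, and GSDME is lowest at 0.0353.

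The genes whose centred log2 values over the 9 libraries lay closest to CASP4 were DHRS7B, INF2 and IER5L, with root mean square differences of 0.0335, 0.0413 and 0.0419 among 12605 genes. CASP4 itself varied about its mean by 0.197 on the same measure. Closest to CASP10, which varied by 0.238, were LRIF1 (0.0743), MKLN1-AS (0.0794) and PARP8 (0.0846). These are likenesses over the same 9 libraries, which share depth and handling, and carry no test.

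Beside the members, 2 further caspase genes are reported. After ADP-heptose CASP2, an initiator caspase linked to DNA damage and centrosome number, was lower by a log2 fold change of -0.58 (SE 0.13, adjusted p = 0.0112) and by -0.40 without ADP-heptose replicate 3, the library with its lowest value, at 1688 against 2503 and 2588 in replicates 1 and 2. The CASP2 call was lost with only the 6 libraries compared or without non-stimulated replicate 1 (adjusted p up to 0.0547). CASP6 (-0.28, adjusted p = 0.068), whose protein cuts lamins, was not called, and without ADP-heptose replicate 3 it was (-0.36, adjusted p = 0.000964). In ADP-heptose against flagellin neither was called (-0.45, adjusted p = 0.0507, for CASP2 and -0.22, adjusted p = 0.186, for CASP6), and without ADP-heptose replicate 3 both were (-0.27, adjusted p = 0.000295, and -0.29, adjusted p = 0.00897).

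Around caspase-8 and caspase-10, 12 of 13 listed death receptor and necroptosis genes were tested, and after ADP-heptose 6 were called higher and 0 lower (median 0.26 on the log2 scale). Over all tested genes 7.48% were called higher and 4.42% lower, with a median of 0.01. This list and those below were chosen with earlier results of these data known, so their counts are no test of a pathway. The largest rises were in TNFRSF10B, a TRAIL receptor, at 1.65 (SE 0.10, adjusted p = 3.41e-07), CFLAR at 1.14 and TNFSF10, which encodes TRAIL, at 0.99 (adjusted p = 1.06e-05). The others were TNFRSF1A (0.47, the TNF receptor), TNFRSF10A (0.45, a second TRAIL receptor) and BID (0.30, adjusted p = 0.0265), whose protein links caspase-8 to mitochondria. The BID call held in 13 of 18 alternatives (adjusted p up to 0.128), among the losses those without non-stimulated replicate 1 or 3, and that of TNFRSF10A in 17, with a loss under library totals (adjusted p = 0.0634). The genes of both TRAIL receptors in this list, of TRAIL itself and of the inhibitor c-FLIP rose, while CASP8 was not called. FADD, the adaptor that binds both caspases to the TRAIL receptors, was at -0.32 (adjusted p = 0.0532) against non-stimulated cells. It was lower than after flagellin by a log2 fold change of -0.43 (adjusted p = 0.0149). Without ADP-heptose replicate 3 it passed the test against non-stimulated cells too (-0.37, adjusted p = 0.00199). The FADD call against flagellin was lost without ADP-heptose replicate 2 or flagellin replicate 2 or 3 (adjusted p up to 0.0711). After flagellin 0 of the 12 were called, where 0.368% of all tested genes were called higher and 0.0115% lower. Without ADP-heptose replicate 3 in the fit CFLAR (0.22, adjusted p = 0.0149) and TNFRSF10B (0.23, adjusted p = 0.00236) were called higher after flagellin. Both were also called with only the 6 libraries compared.

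Around caspase-9, all 9 listed apoptosome and inhibitor of apoptosis (IAP) genes were tested. After ADP-heptose 3 were called higher and 0 lower, with a median of 0.12, where 7.48% and 4.42% of all tested genes were. BIRC3, an IAP gene known as a target of NF-κB, rose by 4.93 (SE 0.13, adjusted p = 1.64e-10), BIRC2, which encodes its relative cIAP1, by 1.11 (SE 0.07, adjusted p = 3.31e-07) and CYCS, the gene of cytochrome c, by 0.37 (adjusted p = 0.0137, and up to 0.0723 without non-stimulated replicate 1 or 3 or with only the 6 libraries compared). APAF1, the scaffold of the apoptosome, was at -0.13 (adjusted p = 0.437) and XIAP, a further IAP gene, was at 0.08 (adjusted p = 0.428). BAX (0.12), BAK1 (0.15), HTRA2 (0.07) and DIABLO (0.07) were not called either. After flagellin BIRC3 rose by 2.08 (SE 0.12, adjusted p = 1.88e-06) and was the 1 gene of this list that was called. BIRC2, at 0.21 (adjusted p = 0.83), was called after flagellin without ADP-heptose replicate 3 in the fit (0.20, adjusted p = 0.0156) and with only the 6 libraries compared. A further list held 4 genes whose proteins caspases cut (DFFA, PARP1, ROCK1 and LMNA) and DFFB, the nuclease that DFFA inhibits. DFFB fell after ADP-heptose (log2 fold change -0.62, SE 0.11, adjusted p = 0.00205). The 4 substrate genes were not called, and LMNA (0.32, adjusted p = 0.0624) was called in 6 of 18 alternatives, one of them without ADP-heptose replicate 3 (0.19, adjusted p = 0.00251).

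Around the inflammatory caspases, 4 of 10 inflammasome sensor and adaptor genes passed the filter on low counts (NLRP3, NLRC4, PYCARD and CARD8). CARD8 was called lower after ADP-heptose (-0.31, SE 0.09, adjusted p = 0.0458), a call that held in 5 of 18 alternatives, and NLRP3 (0.54, adjusted p = 0.173), NLRC4 (-0.14) and PYCARD (0.17) were not called. Of 10 cytokine and effector genes beside these caspases 8 were tested and 4 were called higher after ADP-heptose, with a median of 1.68. The share called higher over all tested genes was 7.48%. NINJ1, whose protein ruptures the membrane at the end of lytic death, rose by 2.55 (SE 0.11, adjusted p = 1.09e-08), from 642.6, 731.5 and 651.9 to 3623, 3588 and 4622 normalized counts. IL1A, a cytokine released on membrane damage, rose by 3.42 (SE 0.22, adjusted p = 5.1e-07). GBP3, a guanylate-binding protein gene of the family that presents lipopolysaccharide to caspase-4, rose by 1.39 (SE 0.10, adjusted p = 1.19e-06). Of the same family, GBP2 (0.08, adjusted p = 0.637) and GBP1 (1.97, adjusted p = 0.083, 2 to 50 raw counts per library) were not called. GBP1 was called in 3 of 18 alternatives. GBP4 and GBP5, with at most 4 counts in any library, did not pass the filter. IL1B, a substrate of caspase-1, had 0 to 4 raw counts in non-stimulated libraries and 16 to 31 after ADP-heptose (adjusted p = 0.00945). IL18, the other caspase-1 substrate, was at 0.20 (adjusted p = 0.232) with 886 to 1596 raw counts per library. After flagellin NINJ1 was called (0.68, SE 0.11, adjusted p = 0.0148), in 13 of 18 alternatives (adjusted p up to 0.126, among the losses those without flagellin replicate 1 or 2 or non-stimulated replicate 1 or 3), and no other gene of this list was. GBP3 after flagellin, at 0.45 (adjusted p = 0.154), was called in 3 of 18 alternatives, one of them without ADP-heptose replicate 3 (0.45, adjusted p = 0.00559).

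**Figure D4:**
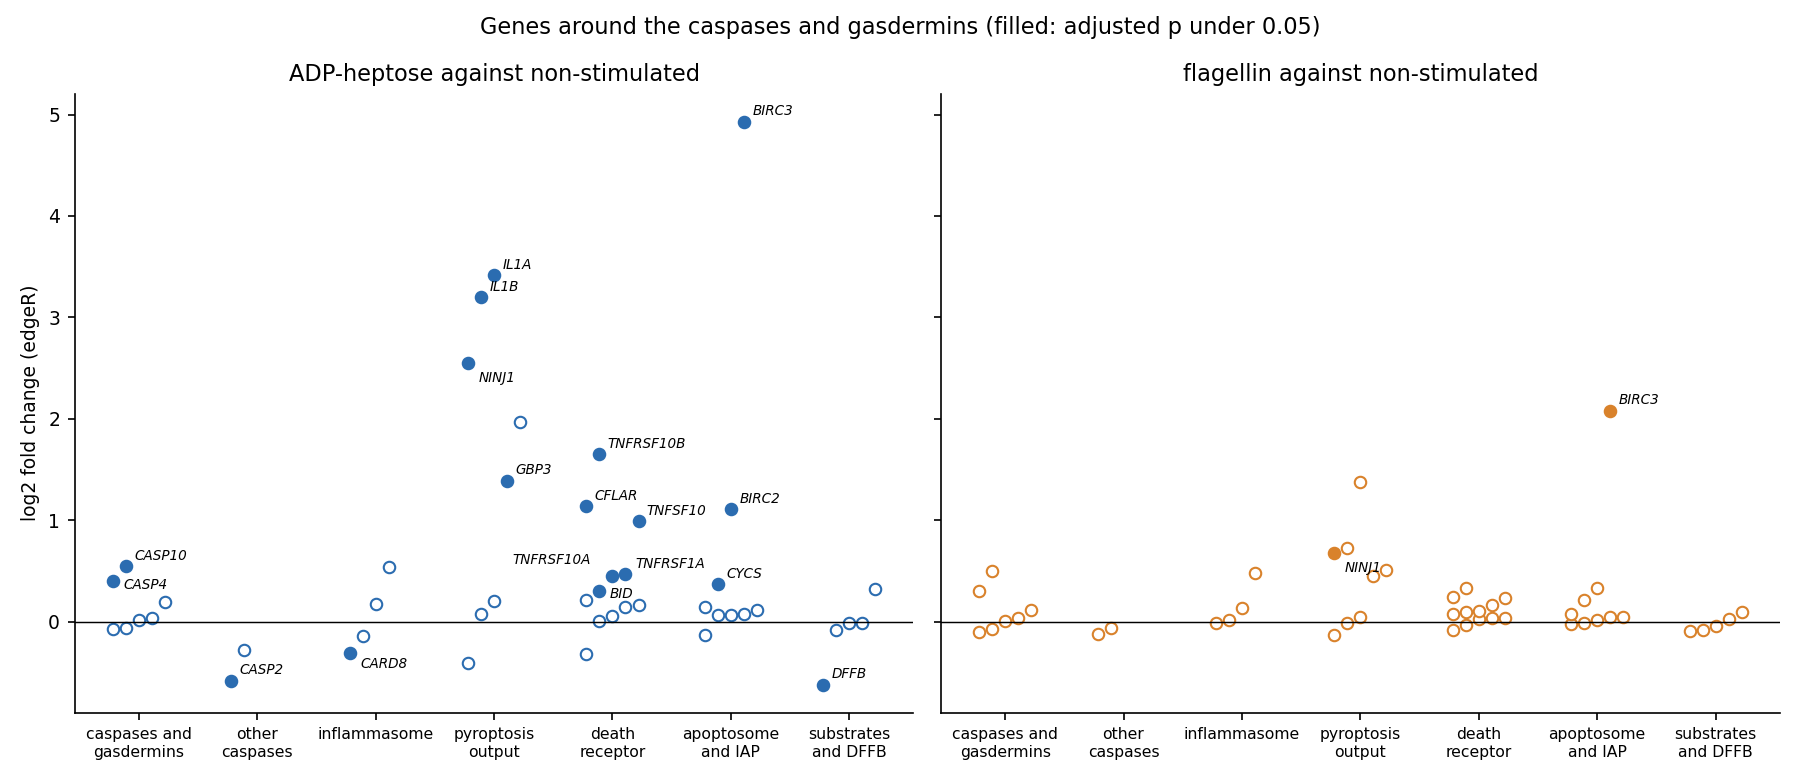
Log2 fold changes (vertical axis) of the members and of 6 lists of genes that act with them, after ADP-heptose (left) and flagellin (right). Each point is 1 gene reported here and filled points passed an adjusted p under 0.05. BIRC3 reached 4.93 and NINJ1 2.55 after ADP-heptose, while the filled members lie at 0.40 and 0.55, and after flagellin BIRC3 and NINJ1 are the filled points.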

How the data were processed

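The 9 HT-29 libraries were grouped by the labelled treatment. The authors enriched poly(A) RNA, sequenced paired reads, aligned them with HISAT2 and ran featureCounts to obtain gene counts, and the deposited table holds these raw counts. Versions, genome build, annotation, strandedness and the treatment of multi-mapping reads are not given in the sources used here. The table has 62972 lines for 62710 identifiers, and 232 identifiers that recur with the same counts were used once. GENCODE release 29 (GRCh38) gave positions and exon lengths.

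The fit used edgeR 4.0.16 (R 4.3.3, TMM, filterByExpr defaults, robust quasi-likelihood F test, 1 fit of all 9 libraries, Benjamini-Hochberg over 17412 genes). A gene was called at an adjusted p under 0.05, and calls of at least 2-fold, the threshold of the study with DESeq2, were counted too. The square root of the common dispersion was 0.109. Intervals are 95% intervals of the fit. For normalized counts each count was scaled from its library's effective size to the geometric mean of the 9 effective sizes. CPM are counts scaled to the effective size. An exact permutation test of 3 against 3 libraries cannot go below a two-sided p of 0.1 and was not used. Likeness to a member was measured on log2 CPM (pseudocount 0.5, mean of at least 1). The alternatives were DESeq2 1.42.0 and its size factors, library totals, 2 other filters on low counts, the 6 libraries compared alone, the replicate number as a block, libraries thinned to 30770448 counts, an offset for transcript length (spline with 4 degrees of freedom, 648 tested genes without a length) and each library left out. The fits were tested on simulated data. The plots were made in Python 3.11.15 with matplotlib 3.10.9.

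Genes named in the text are the members, listed genes past the threshold (with those not called that define a list), the 3 genes nearest to a called member and near-identical or overlapping genes. The members and lists were chosen with earlier results of these data known. Replicates are separate experiments per the study. The p-values set a difference between groups against the spread between libraries. In the main fit that spread is estimated from all 9 libraries, so a comparison also depends on libraries outside it. Some listed genes are not reported here.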

Additional observations from a re-analysis of the deposited data

How the results depend on the processing

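Over 18 alternatives, 348 of 378 log2 fold changes of members kept their direction and their side of the threshold. Most of these values belong to results that were not called in the main fit and had no call to lose. Of the called results after ADP-heptose, CASP10 kept its call in all 18 alternatives and CASP4 in 13. The number of members called higher after ADP-heptose, 2, became 1 with library totals and 1 with only the 6 libraries compared, in each case through the loss of CASP4 (0.26, adjusted p = 0.0705, and 0.40, adjusted p = 0.0767), and was 1 to 2 with 1 library left out. CASP4 was lost without non-stimulated replicate 1, 2 or 3, at 0.36 to 0.43. With a 2-fold threshold the number was 0. In ADP-heptose against flagellin the number, 0, was 0 to 1 with 1 library left out, the call being CASP10 without ADP-heptose replicate 3.

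The members that turned direction, 24 values in all, were never called. With library totals in place of TMM, after ADP-heptose CASP8 was at -0.11 and CASP9 at -0.10, GSDMB was at -0.11 against flagellin, and GSDMD after flagellin was at -0.0024. Library totals moved the median of all genes to -0.127 after ADP-heptose and -0.113 against flagellin, and the calls after ADP-heptose from 1302 higher and 770 lower to 917 and 1886, and against flagellin from 940 and 481 to 708 and 1064. With thinned libraries CASP8 was at -0.01 and GSDME at 0.06 after ADP-heptose, and with the offset for transcript length CASP8 was at 0.03 against flagellin. With 1 library left out, the values after ADP-heptose were -0.01 to 0.04 for CASP8, -0.00042 to 0.09 for CASP9, -0.13 to 0.01 for GSDMB, -0.09 to 0.33 for GSDMD and -0.70 to 0.19 for GSDME. After flagellin they were -0.0025 to 0.06 for CASP8, -0.14 to 0.00014 for GSDMB and -0.05 to 0.05 for GSDMD. Against flagellin they were -0.04 to 0.02 for CASP8, -0.02 to 0.05 for GSDMB and -0.09 to 0.32 for GSDMD. The causes were not tested.

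Same-numbered libraries did not deviate together (correlations over 12606 genes from -0.377 to 0.225), so the numbers were not taken as pairs. With the replicate block CASP10 was at 0.55 (adjusted p = 0.014) and CASP4 at 0.39 (adjusted p = 0.0375) after ADP-heptose, no member changed its call, and of the listed genes named as called BID and CARD8 after ADP-heptose and NINJ1 after flagellin were lost. The calls over all genes were 1064 higher and 523 lower after ADP-heptose, 45 and 1 after flagellin and 784 and 327 against flagellin. Counts over all genes moved by more than 1.5 times in the following settings. Without ADP-heptose replicate 3 there were 2018 higher and 1270 lower after ADP-heptose, 165 and 6 after flagellin, and 1798 and 923 against flagellin. With only the 6 libraries compared, 433 were lower after ADP-heptose, 140 higher after flagellin and 269 lower against flagellin. DESeq2 called 102 higher and 4 lower after flagellin, and without a filter on low counts 114 and 10 were called. Leaving out 1 flagellin or non-stimulated library gave 38 to 52 higher calls after flagellin and down to 392 lower calls after ADP-heptose and 233 against flagellin. GSDME, with 8 to 28 counts, and CASP1, with 0, are limited by counting.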
